A study of Mus musculus with 24 samples.

Results

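The genes described here are the cytosolic ribosomal protein genes, that is, every clone whose gene symbol on the array was Rpsa or began with Rpl, Rps or Rplp and a number. The S6 kinases, Rps19bp1 and pseudogene symbols were left out. The rule gave 61 genes on 92 clones, of 9030 gene symbols and 20794 clones in all, with 38 genes of the large subunit (Rpl and Rplp) and 23 of the small subunit (Rps and Rpsa). All 61 symbols matched the mouse RefSeq annotation. Of these genes, 38 were represented by 1 clone and 23 by several, up to 5 clones for Rps21.

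Brain, heart and skeletal muscle came from the same 4 male Eya3-/- mice, called W, X, Y and Z here, which were 13 weeks old according to the sample labels. The mice were homozygous for a gene trap (pT1βgeo, carrying lacZ) inserted in an intron of Eya3, a transcriptional co-activator with a phosphatase domain, and belonged to 1 line, made in Sv129S2 ES cells and then crossed to C57BL/6. Every organ of every mouse was hybridised on 2 glass cDNA arrays with the Cy3 and Cy5 dyes exchanged, against a wild-type RNA pool of the same organ (male, 13 weeks), which gives 8 arrays per organ and 24 in all. The pool counts as 1 control sample, so every p-value leaves out the spread between wild-type mice. How many animals were pooled is given differently in the labels and the design text, and the numbers of mice W and X fall within the range listed for the pooled animals. The values are log2 ratios, and 0 stands for equal amounts. Their direction, mutant over pool, is likely from the study's legends, which set mutants against controls, but is not stated for the deposited values. A ratio gives no expression level, so the identity of an organ could not be checked by its markers, and in whole organs fewer cells of a type and less RNA per cell cannot be told apart.

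Ribosomal proteins assemble with ribosomal RNA into the subunits of the ribosome, the small one reading the mRNA and the large one joining the amino acids. Nearly all of them are made in equal numbers, and their mRNAs are among the most abundant in every organ. Most of these mRNAs are known to start with a C followed by an unbroken run of pyrimidines (the terminal oligopyrimidine tract, TOP), through which mTORC1 and Larp1 adjust their translation and stability together.

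The transcription starts of the 6 genes at the ends of the ranges described below are shown first, because promoter sequence was not used by the rule that chose the ribosomal protein genes. They are Rps24 (lowest mean in brain), Rps16 (highest in brain among the genes of the rule that have a listed promoter), Rpl14 and Rps21 (lowest and highest in heart), and Rpl10a and Rpl28, which with Rps21 had the largest differences between brain and heart. The rank of Rps21 rested on 1 clone value in 1 heart, and that of Rpl14 on 1 of its 3 clones. The sequences are from RefSeq (GRCm38.p6), from 100 bases before to 20 bases after the first listed start, and capitals mark runs of at least 5 C or T that reach within 20 bases of the start.
Rps24, chr14:24490578-24490697, plus strand: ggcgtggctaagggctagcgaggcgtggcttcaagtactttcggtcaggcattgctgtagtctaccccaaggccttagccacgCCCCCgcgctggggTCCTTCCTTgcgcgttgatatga
Rps16, chr7:28350589-28350708, plus strand: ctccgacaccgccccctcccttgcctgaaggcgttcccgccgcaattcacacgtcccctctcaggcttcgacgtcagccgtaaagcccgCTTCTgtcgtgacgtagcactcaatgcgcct
Rpl14, chr9:120571417-120571536, plus strand: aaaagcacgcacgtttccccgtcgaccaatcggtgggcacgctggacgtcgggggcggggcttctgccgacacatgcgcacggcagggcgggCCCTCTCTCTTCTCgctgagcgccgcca
Rps21, chr2:180257279-180257398, plus strand: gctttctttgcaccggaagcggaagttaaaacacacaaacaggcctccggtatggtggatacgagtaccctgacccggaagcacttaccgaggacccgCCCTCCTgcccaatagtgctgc
Rpl10a, chr17:28328371-28328490, plus strand: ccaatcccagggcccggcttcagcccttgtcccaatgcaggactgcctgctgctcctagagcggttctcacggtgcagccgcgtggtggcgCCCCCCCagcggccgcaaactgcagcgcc
Rpl28, chr7:4792865-4792984, plus strand: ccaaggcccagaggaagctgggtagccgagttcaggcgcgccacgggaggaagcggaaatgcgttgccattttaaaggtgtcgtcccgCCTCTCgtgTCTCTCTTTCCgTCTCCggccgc
Of the 61 genes, 53 had a listed promoter. A C followed by at least 4 C or T at the first transcribed base was found in 11 of them (20.8%), against 2.49% of all 27025 promoters of the table. In the 300 bases from 250 before to 50 after the start, CCGGAAG on either strand was found in 22 of the 53 (41.5% against 9.12%), and CTTTCC on the transcribed strand in 20 (37.7% against 14%). In brain, the 10 measured genes with the C and pyrimidine start had a median log2 ratio of -0.29 and the 38 without it -0.27, and in heart the medians were 0.19 for 11 genes and 0.14 for 38. The genes with the feature thus lay close to those without it in both organs. The split rests on the first listed start, and a gene without the feature can still carry a TOP sequence. Rps24 counted as without it, with a T at the first base inside a run of 9 pyrimidines. The medians therefore cannot compare TOP mRNAs with others.

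An array lacked values for 4.75% to 24.5% of its clones, and for 1.09% to 13% of the ribosomal protein clones. A gene was tested where at least 3 mice had values on both arrays, which held in brain for 56 of 61 genes and in heart and muscle for 57 each. Rpl22l1, Rpl7l1 and Rpl9 had too few values in all 3 organs, Rpl23 in brain and heart, Rps15a in brain and Rpl27a in muscle. The deposited values of both dye orientations run the same way: clones of the haemoglobin gene Hba-a1 had the same sign on both arrays in 67 of 72 cases. Signal over background was not used here, and the number of arrays limits the precision.

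In brain, the ribosomal protein genes as a group lay below the wild-type pool. Of 56 genes tested, 50 had a mean log2 ratio below 0, against 50.9% of all 13501 features (genes, and clones without a symbol). The median of the 56 genes was -0.29, while the median of all features was -0.01. The medians of the single mice were -0.21 in W, -0.25 in X, -0.15 in Y and -0.44 in Z. All 8 brain arrays had a median below 0, and mouse Z lay lowest.

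Of 55 genes with values in every mouse, 30 lay below 0 in all 4 mice (14.2% of all features did) and 2 above 0 in all 4 (10.1% of all features), Rpl30 and Rps16. On all 8 arrays, 5 genes lay below 0 (Rpl12, Rps14, Rps24, Rps27 and Rpsa, against 2.08% of all features) and Rpl30 lay above 0 (1.21% of all features). No single gene passed the test: limma called 0 of 56 genes and 0% of all features at an adjusted p under 0.10, and the lowest adjusted p of a ribosomal protein gene was 0.546. At an unadjusted p under 0.05, 4 genes were lower (Rps24, Rpsa, Rpl28 and Rpl19, against 3.52% of all features) and 0 were higher (5.18% of all features). The wild-type pool is a single sample, so a deviation of the pool would appear in every mouse.

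**Figure D1:**
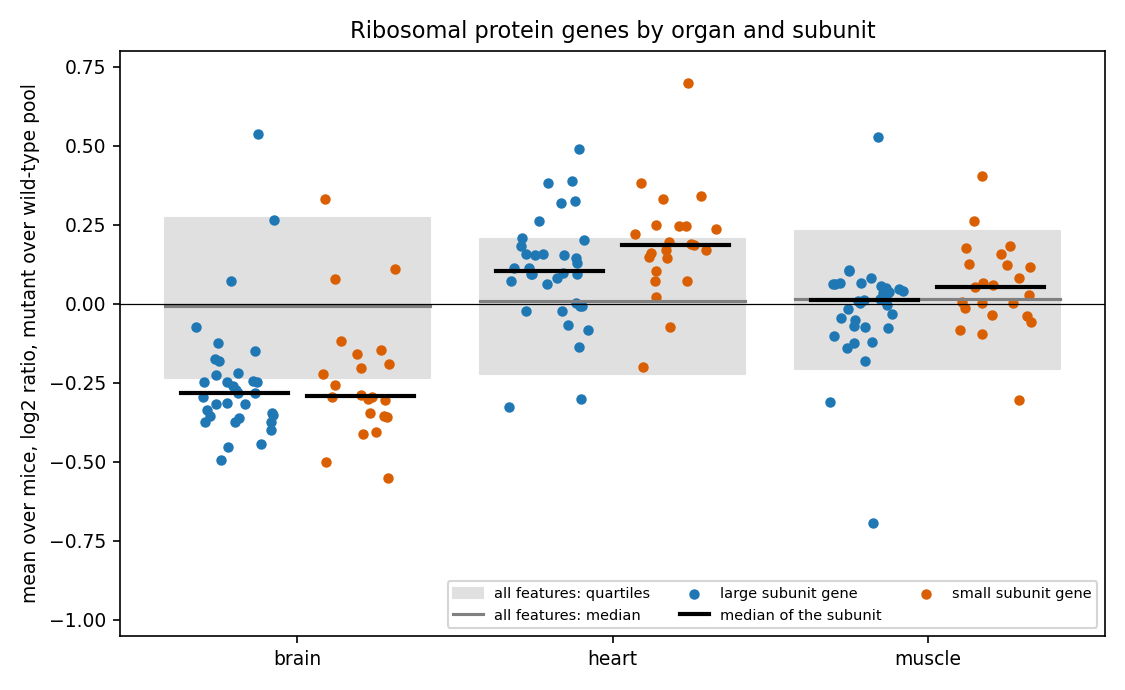
Mean log2 ratio of each ribosomal protein gene over the mice (points) in brain, heart and muscle, large subunit genes in blue and small subunit genes in orange, with black bars at the subunit medians and grey bands from the lower to the upper quartile of all features. Most points lie below 0 in brain (50 of 56) and above 0 in heart (46 of 57), and they surround 0 in muscle.

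In heart, the same genes lay above 0. Of 57 genes tested, 46 had a mean above 0, against 51% of 13831 features, with a median of 0.15 beside 0.01 for all features. The mouse medians were 0.22 in W, 0.19 in X, -0.07 in Y and 0.16 in Z, so that mouse Y did not share the shift. In mouse Y, 37 of 54 measured genes lay below 0, against 6226 of 11902 features (median -0.03). Of 54 genes with values in every mouse, 13 lay above 0 in all 4 (9.08% of all features) and 0 lay below 0 in all 4 (7.76% of all features). On all 8 arrays, 0 genes lay above 0 and 0 below (0.53% and 0.57% of all features). Limma called 0 genes (0% of all features), the lowest adjusted p was 0.818, and 0 genes were lower or higher at an unadjusted p under 0.05 (2.79% and 2.24% of all features). Without mouse Y, 33 of 57 genes lay above 0 in every remaining mouse (17.5% of all features).

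In skeletal muscle, no common shift was measured. The median of 57 genes was 0.02, beside 0.01 for all 13098 features, and 35 genes lay above 0 (51.9% of all features). The mouse medians were 0.07 in W, 0.09 in X, 0.09 in Y and -0.15 in Z. In mouse Z, 47 of 56 measured genes lay below 0, against 5388 of 12657 features (median 0.08). Of 55 genes with values in every mouse, 4 lay above 0 in all 4 mice (6.86% of all features) and 2 below (4.71%). On all 8 arrays, 0 genes lay above 0 (0.245% of all features) and 0 below (0.267%). Limma called 0 genes (0% of all features), with adjusted p of at least 0.953, and 0 genes were lower or higher at an unadjusted p under 0.05 (1.35% and 2.07% of all features). Without mouse Z, 22 of 56 genes lay above 0 in every remaining mouse (12.8% of all features).

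**Figure D2:**
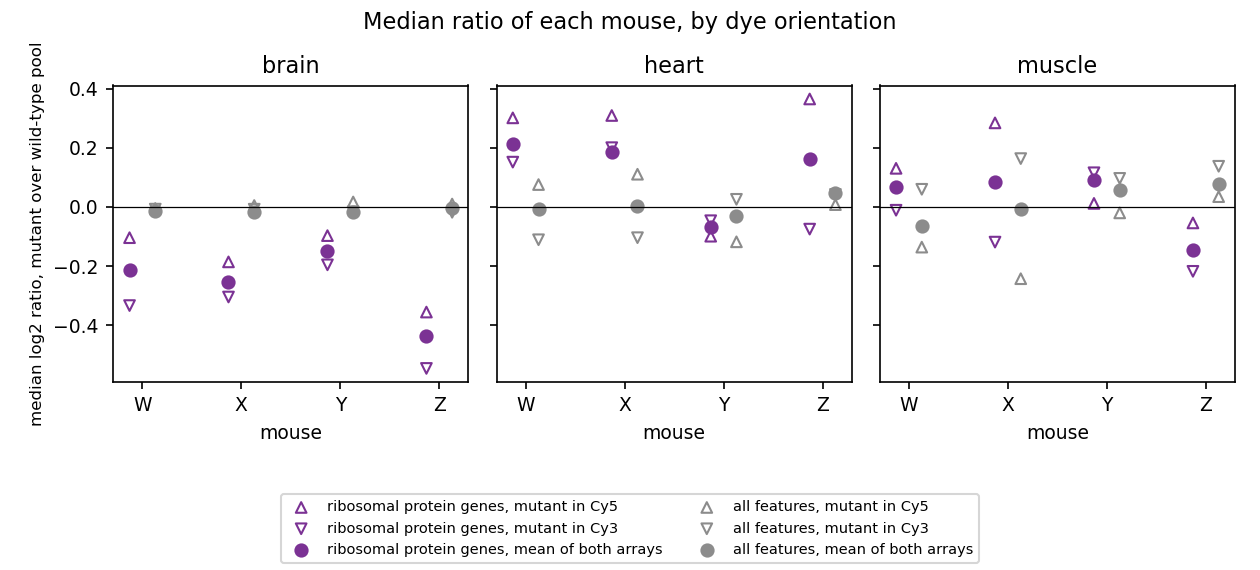
Median log2 ratio in each mouse (x axis) of the ribosomal protein genes (purple) and of all features (grey), in brain, heart and muscle, for arrays with the mutant in Cy5 (upward triangles), in Cy3 (downward triangles) and for the mean of both arrays (dots). In brain the purple symbols of all 4 mice lie below 0 for both dyes, from -0.10 to -0.55, and in heart and muscle they lie on both sides of 0.

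The values of single mice are means of both dye orientations. The values of 1 orientation, given here and below, use every clone measured on those arrays. The shift in brain was measured in both dye orientations, and the shift in heart mainly in one. With the mutant in Cy5 the median in brain was -0.18 and with the mutant in Cy3 -0.34, and 32 of 56 genes (57.1%) had a mean below 0 in both orientations, against 22.9% of all features. In heart the median was 0.23 with the mutant in Cy5 and 0.00 with the mutant in Cy3, and 15 of 57 genes (26.3%) lay above 0 in both, against 20.3% of all features. In muscle the medians were 0.10 and -0.07, and 48 of 57 genes had opposite signs in the dye orientations, against 7630 of 13098 features. Opposite signs were found for 38 of 57 genes in heart (8099 of 13831 features) and 23 of 56 in brain (7060 of 13501 features). Over all features the Cy5 and Cy3 medians were 0.02 and 0.00 in brain and 0.02 and -0.04 in heart. In muscle they were -0.09 and 0.12, each on the other side of 0 from that of the ribosomal protein genes.

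The ribosomal protein genes varied less between mice than the median feature. Their median SD over mice was 0.25 for brain, beside 0.45 for all features, 0.22 beside 0.46 for heart, and 0.18 beside 0.54 for muscle. Differences between the genes, on the other hand, partly followed the dye. Rps18, a protein of the small subunit's head, gave the clearest case. With the mutant in Cy5 its brain ratios were 0.59, 0.38, 0.59 and 0.25 in W, X, Y and Z, and in Cy3 -1.27, -1.07, -0.76 and -1.07. In heart the Cy5 values ran from 0.37 to 1.11 and the Cy3 values from -0.65 to -0.42. The orientations of Rps18 did not overlap in either organ, and their means were -0.29 ± 0.14 (brain) and 0.07 ± 0.14 (heart; SD, n = 4 mice).

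The arrays of 1 mouse and organ with exchanged dyes had Pearson correlations of -0.64 to 0.12 across the ribosomal protein genes (56 to 60 genes, a description over genes that share arrays), and of -0.08 to 0.00 across all features. The dye difference (the mean with the mutant in Cy5 minus that in Cy3, divided by 2) had the same sign in all 3 organs for 36 of 55 genes (65.5%), against 41.3% of all features. Its median size was smaller in the ribosomal protein genes than in all features. It was 0.173 against 0.276 in brain, 0.217 against 0.285 in heart and 0.193 against 0.29 in muscle. Over genes, which are not independent replicates and whose arrays share clones and dyes, this dye difference had a Spearman correlation of 0.58 between brain and heart (56 genes), 0.59 between brain and muscle (55 genes) and 0.79 between heart and muscle (56 genes). Over all features the correlations were 0.33, 0.14 and 0.22. The mean of both orientations, which is the ratio reported here, had correlations of -0.07, -0.09 and 0.07 between the same organs. Over all features these were -0.08, -0.002 and -0.01. The order of the genes by their dye difference thus recurred between organs, and their order by the mean ratio did not. Between mice of the same organ, the order by the mean ratio recurred only weakly. For brain, the median Spearman correlation over 6 pairs of mice was 0.12 (0.07 to 0.30). Heart and muscle both had a median of 0.09, with pairs from -0.06 to 0.30 for heart and from -0.29 to 0.39 for muscle. Over all features the medians for brain, heart and muscle were 0.11, 0.04 and -0.01. The low correlations of the mean ratio between organs therefore do not show a difference between organs.

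**Figure D3:**
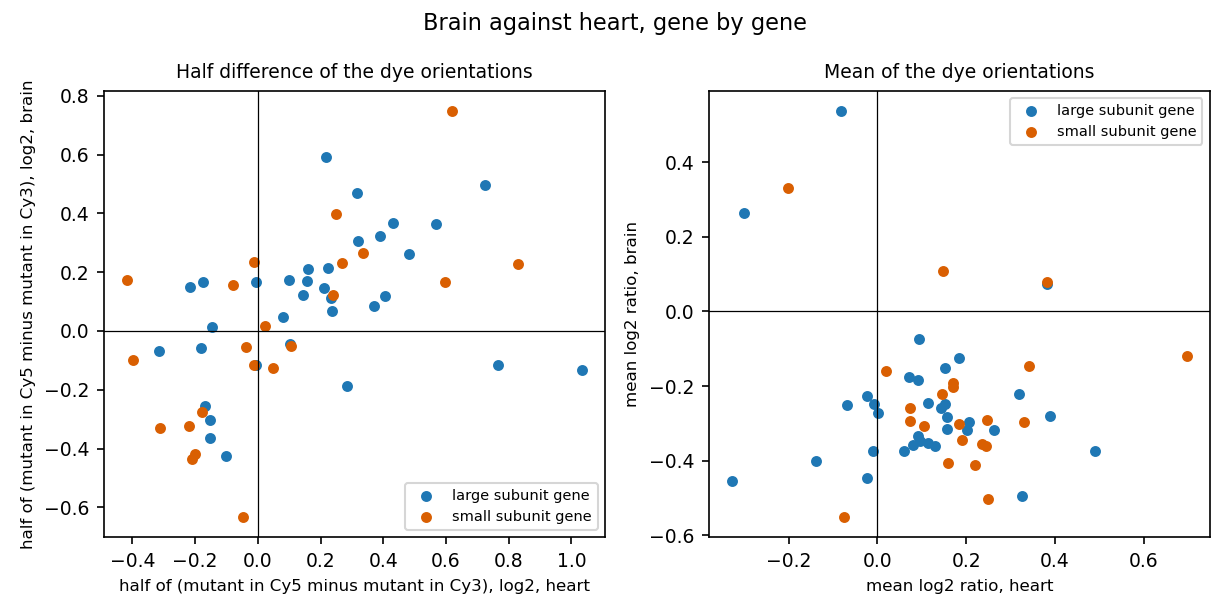
Brain (y axis) against heart (x axis) for each ribosomal protein gene, on the left the log2 dye difference (mutant in Cy5 minus mutant in Cy3, divided by 2), on the right the mean log2 ratio of both, large subunit genes in blue and small subunit genes in orange. The points rise together on the left (Spearman 0.58, 56 genes) and on the right form a cloud below 0 in brain and mostly above 0 in heart (Spearman -0.07).

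The subunits were compared as a description, without a test. In brain the large subunit genes had a median of -0.28 (31 of 34 below 0) and the small subunit genes of -0.29 (19 of 22 below 0). The large minus small difference was 0.01, and by mouse it was -0.07 in W, 0.06 in X, -0.02 in Y and -0.03 in Z. In brain the subunits thus lay together. In heart the large subunit median was 0.11 (25 of 34 above 0) and the small subunit median 0.19 (21 of 23 above 0). The large minus small difference there was -0.08, with -0.07 in W, -0.06 in X, -0.05 in Y and -0.03 in Z, so the large subunit lay slightly lower in every mouse. This difference turned with the dye, since it was 0.10 on the heart arrays with the mutant in Cy5 and -0.26 on those with the mutant in Cy3. In muscle the medians were 0.01 and 0.05 and the difference -0.04, with -0.01 in W, -0.11 in X, -0.01 in Y and -0.11 in Z, again lower in every mouse and again turning with the dye (0.02 with the mutant in Cy5 and -0.12 in Cy3).

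The P-stalk, the flexible arm of the large subunit that recruits elongation factors, had 3 genes on the array, all with means below 0 in brain. Rplp1, which forms dimers with Rplp2 on the stalk, had ratios of -0.39, -0.32, -0.33 and -0.24 in W, X, Y and Z in brain, a mean of -0.32 ± 0.06 (SD, n = 4 mice), and 0.54, 0.29, -0.05 and 0.28 in heart, a mean of 0.26 ± 0.24 (SD, n = 4 mice). No brain value overlapped with a heart value, but the brain mean was -0.68 with the mutant in Cy5 and 0.05 in Cy3, so its direction in brain rested on 1 dye. Rplp0, the base of the stalk, had -0.14, -0.28, -0.06 and -0.70 in brain, 0.19, 0.13, 0.20 and 0.31 in heart, and -0.35, -0.03, -0.23 and -0.12 in muscle. As means of both dyes, these values had one sign in all mice of each organ, but they turned with the dye: the means with the mutant in Cy5 and in Cy3 were 0.03 and -0.62 in brain, 0.60 and -0.18 in heart, and 0.30 and -0.67 in muscle. Rplp2, the other stalk protein, had a brain mean of -0.25 ± 0.28, a heart mean of 0.15 ± 0.23 and a muscle mean of -0.02 ± 0.35 (SD, n = 4 mice). None of these passed limma in any organ (adjusted p of at least 0.546).

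Rpl5 and Rpl11 bind the 5S ribosomal RNA and, when not assembled, also Mdm2, the ubiquitin ligase of p53. Rpl5 had -0.59, 0.12, -0.21 and -0.44 in brain and 0.48, 0.67, 0.05 and 0.34 in heart, where its mean of 0.39 ± 0.26 (SD, n = 4 mice) was among the highest. Rpl11 lay below 0 in all 4 brains, with -0.14, -0.47, -0.30 and -0.68, and in heart it had a mean of -0.14 ± 0.16 (SD, n = 4 mice). The partners thus lay on the same side of 0 in brain and on opposite sides in heart, where the clones of Rpl11 had opposite signs.

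Around the exit of the peptide tunnel, where new proteins leave the large subunit, 7 genes were on the array: Rpl4, Rpl19, Rpl22, Rpl26, Rpl31, Rpl35 and Rpl39. All had means below 0 in brain, from -0.07 for Rpl26 to -0.44 for Rpl19, but only Rpl19 and Rpl39 lay below 0 in both dye orientations. The other 5 changed sign with the dye, as with Rpl35 (0.44 with the mutant in Cy5 and -0.55 in Cy3), Rpl31 (0.09 and -0.34), Rpl26 (0.05 and -0.19) and Rpl22 (-0.67 and 0.18). Rpl19, at the rim of the exit, had -0.41, -0.42, -0.16 and -0.79 in brain and -0.02 ± 0.16 (SD, n = 4 mice) in heart. Rpl39, the small protein that lines the tunnel, had -0.15, -0.14, -0.27 and -0.48 in brain and 0.20, 0.27, -0.09 and 0.20 in heart. Brain and heart values of Rpl39 did not overlap, and its heart mean was 0.38 with the mutant in Cy5 and -0.09 in Cy3. Rpl22 varied most, with -1.10 in the heart of mouse Y and 0.14 to 0.49 in the other hearts. Rpl4, which reaches into the tunnel with a long loop, lay below 0 in every brain (mean -0.35 ± 0.23, SD, n = 4 mice), but its brain mean was 0.12 with the mutant in Cy5 and -0.81 with the mutant in Cy3.

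Among the remaining large subunit proteins, Rpl28 and Rpl10a stood at the ends of the range. Rpl28 had -0.58, -0.20, -0.40 and -0.80 in brain and 0.44, 0.07, 0.47 and 0.32 in heart, every brain below every heart, with means of -0.49 ± 0.26 and 0.33 ± 0.18 (SD, n = 4 mice). Its brain means lay below 0 with both dyes, and its heart mean was 0.76 with the mutant in Cy5 and -0.11 in Cy3. Rpl10a, a protein of the L1 stalk where spent tRNA leaves the ribosome, had -0.69, -0.25, -0.51 and -0.05 in brain and 0.10, 0.86, 0.69 and 0.31 in heart. Its heart mean of 0.49 ± 0.35 (SD, n = 4 mice), 1.40-fold above the pool, had the lowest limma p of the ribosomal protein genes in heart (adjusted p = 0.818). Both had a C at the first base in the sequences shown above, followed by pyrimidines in Rpl28 and by a G in Rpl10a. Rpl6 lay below 0 in all 4 muscles, with -0.42, -0.23, -0.17 and -0.42, the lowest limma p among these genes in muscle (adjusted p = 0.953). One of its clones had a muscle mean of -0.52 ± 0.26 and the other of -0.10 ± 0.25 (SD, n = 4 mice). The mouse values of the latter clone lay on both sides of 0.

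Rpl30 and Rps16 went the other way in brain. Rpl30, a large subunit protein at the interface of the subunits, had 0.52, 1.16, 0.04 and 0.44 in brain, a mean of 0.54 ± 0.47 (SD, n = 4 mice), and -0.08 ± 0.36 in heart. One of its clones had a brain mean of 1.24 ± 0.82 (SD, n = 3 mice) and the other 0.13 ± 0.56 (SD, n = 4 mice), so most of its height came from 1 clone. Rps16, whose tail reaches the peptidyl tRNA, had 0.34, 0.39, 0.17 and 0.43 in brain, with a mean of 0.33 ± 0.11 (SD, n = 4 mice) and 1 clone. With the mutant in Cy5 its brain mean was -0.09 and with the mutant in Cy3 0.75.

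**Figure D4:**
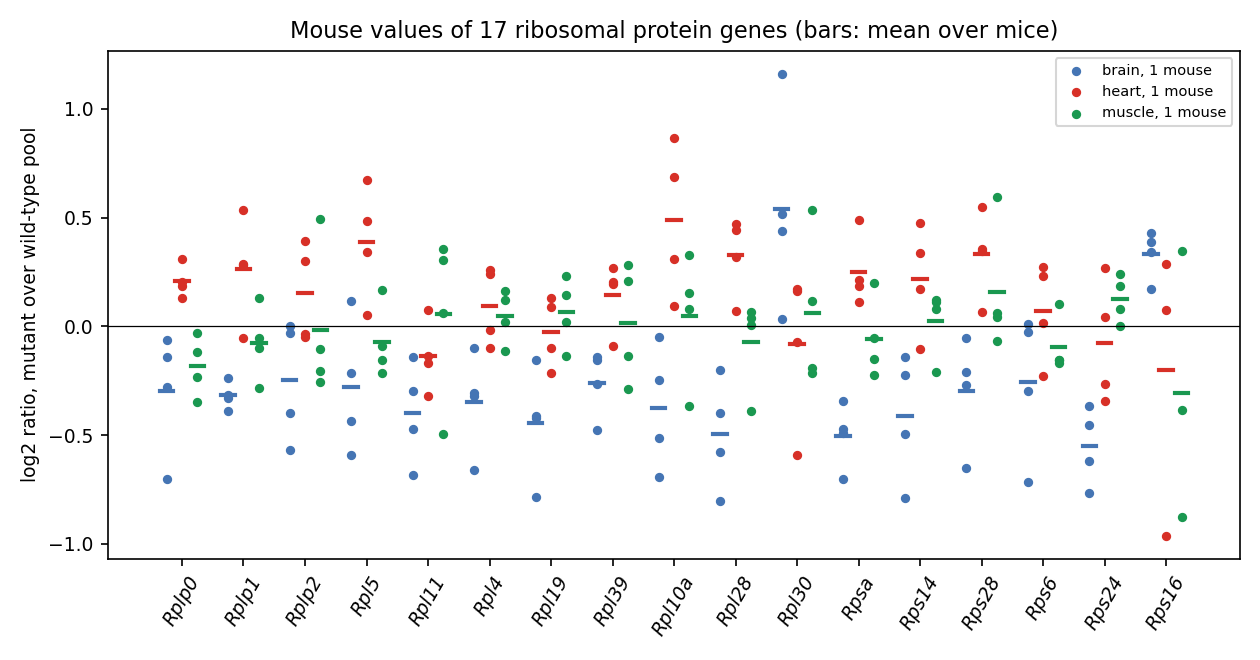
Log2 ratio of 17 ribosomal protein genes (x axis) in single mice (points) of brain (blue), heart (red) and muscle (green), with bars at the mean over mice. As means of both dyes, brain points lie below heart points without overlap for Rplp0, Rplp1, Rpl10a, Rpl28, Rpl39, Rpsa, Rps14, Rps28 and Rps24, and above 0 in all mice for Rpl30 and Rps16.

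In the small subunit, the 4 genes of the platform and the mRNA exit had means below 0 in brain and above 0 in heart, with both dyes in Rpsa and Rps14 and not in Rps26 and Rps28. Rpsa, also known as the laminin receptor precursor, had -0.34, -0.47, -0.49 and -0.70 in brain, a mean of -0.50 ± 0.15 (SD, n = 4 mice), and its 8 brain arrays ran from -0.28 to -0.88. In heart it had 0.11, 0.21, 0.18 and 0.49. Rpsa thus lay on opposite sides of 0 in all mice of the organs, and its means were below 0 in brain and above 0 in heart with both dyes. Rps14, a platform protein whose gene is deleted in 5q- syndrome in humans, had -0.22, -0.50, -0.14 and -0.79 in brain and 0.34, 0.47, -0.11 and 0.17 in heart, and its 2 clones had brain means of -0.42 and -0.40. Rps28 had -0.05, -0.27, -0.21 and -0.65 in brain and 0.55, 0.35, 0.36 and 0.07 in heart, where its mean was 1.04 with the mutant in Cy5 and -0.62 in Cy3. Rps26, which sits at the mRNA exit, had means of -0.20 ± 0.16 in brain and 0.17 ± 0.11 in heart (SD, n = 4 mice). With the mutant in Cy5 and in Cy3 these means were 0.06 and -0.47 in brain and 0.50 and -0.16 in heart.

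At the mRNA entry and the decoding centre, 3 genes were on the array. Rps18, described above, lay below 0 in all 4 brains as the mean of dyes that pointed opposite ways. Rps9, at the mRNA entry, had a mean of 0.08 ± 0.20 in brain and 0.38 ± 0.41 in heart (SD, n = 4 mice), the latter with 0.99 in mouse X and 0.10 to 0.23 in the others. In muscle Rps9 had 0.17, 0.22, 0.16 and 0.14, but its mean was -0.02 with the mutant in Cy5 and 0.37 in Cy3. Rps15, near the decoding centre, had -0.41, 0.46, -0.35 and -0.33 in brain, mouse X lying apart. One of its clones had a brain mean of -0.45 ± 0.15 (SD, n = 4 mice) and the other 0.30 ± 0.85 (SD, n = 3 mice).

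Rps6, the ribosomal substrate of the S6 kinases, had -0.72, -0.03, 0.01 and -0.30 in brain and 0.07 ± 0.23 (SD, n = 4 mice) in heart. Its brain values near 0 in mice X and Y averaged clones of opposite sign. One clone lay below 0 in all 4 brains (mean -0.21 ± 0.04, SD, n = 4 mice), and the other ran from -1.20 to 0.19. Rps19 and Rps24 are mutated in Diamond-Blackfan anaemia in humans and act in the maturation of the small subunit. Rps24 had the lowest mean of all in brain, with -0.62, -0.77, -0.45 and -0.37, a mean of -0.55 ± 0.18 (SD, n = 4 mice) or 1.47-fold below the pool. One of its clones had a brain mean of -0.82 ± 0.46 and the other of -0.28 ± 0.36 (SD, n = 4 mice), so its size depended on the clone. In heart Rps24 had -0.26, 0.27, -0.35 and 0.04, and in muscle 0.08, 0.24, 0.18 and 0.00. Rps19 had -0.19 ± 0.30 in brain and 0.17 ± 0.37 in heart (SD, n = 4 mice). Rps3a1, with -0.46, -0.50, -0.08 and -0.58 in brain, completed the 5 genes with the lowest limma p there.

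Genes with a close paralog were measured unevenly. As means of both dyes, Rpl36al, the paralog of Rpl36a, had -0.12, -0.42, -0.29 and -0.61 in brain, close to Rpl36a itself with a mean of -0.31 ± 0.11 (SD, n = 4 mice). By dye they differed, with 0.01 (mutant in Cy5) and -0.72 (mutant in Cy3) for Rpl36al and -0.30 and -0.33 for Rpl36a. The cDNA clones of such similar genes can take up each other's cDNA. Rps27l, a p53-responsive paralog of Rps27, had 0.52, 0.51, 0.32 and 0.02 in heart and -0.15 ± 0.21 (SD, n = 4 mice) in brain. Rpl39l, mainly known from the testis, ran against Rpl39, with 0.20, -0.05, 0.52 and 0.39 in brain and -0.15, -0.30 and -0.45 in the 3 measured hearts. With the mutant in Cy5 its brain mean was 0.86 and with the mutant in Cy3 -0.33. Rpl22l1 and Rpl7l1 had values on both arrays in at most 2 mice of an organ and were not tested.

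**Figure D5:**
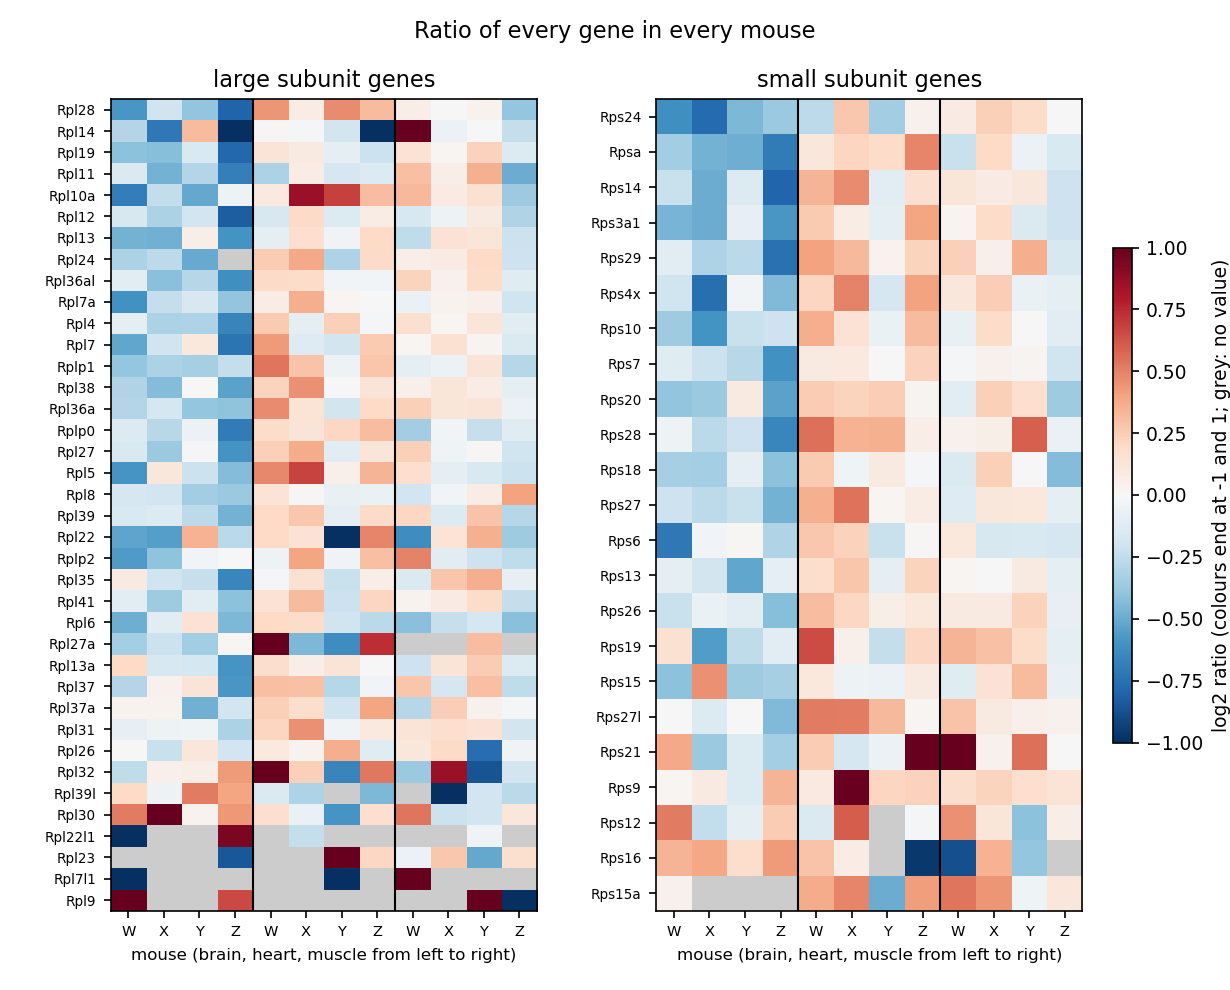
Log2 ratio of every ribosomal protein gene (rows, ordered by the brain mean within each subunit) in every mouse of brain, heart and muscle (columns), blue below 0 and red above 0, with colours ending at -1 and 1 and grey for no value. The brain columns are mostly blue in both subunits, the heart columns mostly red except for mouse Y, and the muscle columns pale with mouse Z mostly blue.

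Several genes had more than 1 measured clone, which gives a second look at the same mRNA. In brain, 21 genes had at least 2 measured clones, and in 16 of them all clones had the same sign, below 0 in 15. The 5 exceptions were Rpl32, Rpl37, Rps12, Rps15 and Rps21. In heart the clones had one sign in 10 of 20 genes and in muscle in 11 of 21. Counted clone by clone, 75 of 84 brain clones lay below 0 and 64 of 83 heart clones above 0.

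Some of the extreme gene means rested on a single clone value. Rps21 had the highest mean in heart, 0.70 ± 1.39 (SD, n = 4 mice), with 0.26, -0.17, -0.05 and 2.76, and 1 of its 5 clones had 8.10 in the heart of mouse Z. With values beyond 10 taken as missing its heart mean was 0.03. Rpl14 had the highest mean in muscle, 0.53 ± 1.25 (SD, n = 4 mice), from 2.40 in mouse W and -0.23 to 0.01 in the others, and 1 of its 3 clones had 6.90 there. The same clone had -3.80 in the heart of mouse Z, the organ in which Rpl14 had the lowest mean (-0.33 ± 0.54, SD, n = 4 mice). The other clones of Rpl14 had heart means of 0.01 and 0.03. Rpl32 and Rps12 also varied widely, with SD of 0.86 over hearts for Rpl32 and 0.36 over muscles for Rps12.

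Brain and heart were then compared directly. Of 56 genes measured in both, 53 were lower in brain than in heart (50% of all 12121 features), with a median difference of -0.42 on the log2 scale. The medians of the differences within each mouse were -0.51 in W, -0.53 in X, -0.16 in Y and -0.56 in Z. Over all features these medians ran from -0.06 in Z to 0.00 in W. In 21 genes every brain lay below every heart (5.69% of all features) and in 1, Rpl39l, every brain lay above (4.59% of all features). At an unadjusted p under 0.05, 18 genes were lower in brain (5.14% of all features) and 1, Rpl39l, was higher (5.32%). Limma called 0 of them (0% of all features). The largest differences were -0.86 for Rpl10a, -0.82 for Rpl28 and -0.82 for Rps21. That of Rps21 was -0.15 with values beyond 10 taken as missing, and Rpsa (-0.75) was then the third largest. The lowest adjusted p was 0.445, shared by Rpsa, Rpl28, Rpl10a, Rplp1 and Rps28. With the mouse as a replicate block the lowest adjusted p was 0.607, and 6 genes were lower in brain at an unadjusted p under 0.05 (3.06% of all features). Each organ had its own pool and was normalized apart, so differences between organs also hold differences between the pools.

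Brain also lay below muscle. Of 55 genes, 48 were lower in brain (50.9% of all 11290 features), with a median difference of -0.29 and, by mouse, -0.29, -0.33, -0.29 and -0.34 in W, X, Y and Z. As deposited, this difference was even between the mice, although mouse Z lay low in both organs. The medians of all features were 0.06 in W, -0.01 in X, -0.06 in Y and -0.125 in Z. The ribosomal protein genes thus lay nearer to all features in Y and Z than in W and X. In 8 genes every brain lay below every muscle (4.13% of all features) and in 1, Rpl39l, above (3.01%). Rps24 had the lowest limma p, with a difference of -0.68 (adjusted p = 0.731), and it was the 1 gene lower in brain at an unadjusted p under 0.05 (2.99% of all features), while Rpl39l was the 1 higher (3.1%). Limma called 0 genes (0% of all features).

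Between heart and muscle, 11 of 56 genes were lower in heart (48.7% of all 11792 features), and the median difference was 0.14. By mouse it was 0.17 in W, 0.13 in X, -0.17 in Y and 0.32 in Z. Over all features it was 0.11 in W, 0.05 in X, -0.10 in Y and -0.02 in Z. Much of the difference in W and Y was thus shared by all features. Every heart lay above every muscle in 2 genes, Rplp0 and Rpl28 (2.69% of all features), and below in 0 (3.02%). Limma called 0 genes (0% of all features, lowest adjusted p = 0.894), and 0 genes had an unadjusted p under 0.05 in either direction (2.98% lower and 1.92% higher among all features).

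Other genes of the pathway were counted from lists. Among mRNAs of other proteins that carry a TOP sequence, 16 of 19 lay below 0 in brain (median -0.24), 18 of 20 above 0 in heart (median 0.09) and 12 of 20 above 0 in muscle (median 0.01). In brain these included Eef2, the translocation factor, with -0.45 ± 0.26, Tpt1 with -0.41 ± 0.18, Naca, which meets new chains at the tunnel exit, with -0.29 ± 0.11, and Eef1a1, which delivers tRNA, with -0.27 ± 0.23 (SD, n = 4 mice). Eef1g lay at the other end with 0.94 ± 0.54. By mouse, the brain medians of this list were -0.23, -0.26, -0.22 and -0.22. Fau, which encodes a small subunit protein fused to a ubiquitin-like part, had -0.33 ± 0.21 in brain (SD, n = 4 mice) and was below 0 in all 4 mice.

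The factors that build ribosomes were counted in the same way. Of the genes of ribosome biogenesis, 26 of 50 lay below 0 in brain (median -0.02), 33 of 49 above 0 in heart (median 0.08) and 28 of 49 below 0 in muscle (median -0.04). Within this list Ncl, nucleolin, had -0.22, -0.37, -0.23 and -0.45 in brain, and Npm1 had -0.11 ± 0.21 (SD, n = 4 mice). Of RNA polymerase I and its factors, 4 of 9 lay below 0 in brain and 4 of 9 in heart. Of the S6 kinases and mTORC1 genes, 5 of 11 lay below 0 in brain (median 0.03) and 3 of 10 in heart (median 0.10). Limma called 0 genes of these lists in any organ. At an unadjusted p under 0.05 in brain, 3 of 19 TOP genes were lower and 1 was higher, and of 50 genes of ribosome biogenesis 0 were lower and 2 higher, where all features had 3.52% lower and 5.18% higher. In heart 2 of 49 genes of ribosome biogenesis were lower and 0 higher (2.79% and 2.24% of all features). The lists were compiled with earlier results of these data known.

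Markers of blood and of other cell types were set beside these shifts. The median of the Hba-a1 clones in brain, over arrays with the mutant in Cy5, was -0.56 in W, -1.16 in X, -0.93 in Y and -1.58 in Z, lowest in the mouse with the lowest ribosomal protein median. In muscle it was 1.22 in W, -0.16 in X, 1.28 in Y and -1.42 in Z, where mouse Z again was lowest in both. In heart it was -0.72, -0.15, -0.90 and -0.64, lowest in mouse Y, as was the ribosomal protein median. On the arrays with the mutant in Cy3 the order in heart was another, with -1.03, -0.37, -0.10 and -0.61, highest in mouse Y. Of the list of red cell genes, 3 of 9 were measured, and of these 2 lay below 0 in brain, all 3 in heart, and 1 did in muscle. The median of that list in brain was -0.57, -0.37, -0.50 and 0.18 in W, X, Y and Z, so in mouse Z the list lay highest although the Hba-a1 clones lay lowest. The lists of neurons (4 of 6 genes below 0, median -0.12), astrocytes (4 of 5, -0.13), oligodendrocytes (2 of 5, 0.08), microglia and macrophages (4 of 6, -0.07) and endothelium (3 of 4, -0.10) also had values on both sides of 0 in brain. In heart, heart muscle cell genes had a median of 0.05 (1 of 6 below 0), endothelium of -0.31 (5 of 6 below 0) and fibroblasts of 0.13 (1 of 5 below 0). Mouse Y, the mouse without the shift, was lowest for heart muscle cells (-0.26), endothelium (-0.49), oligodendrocytes (-0.45) and skeletal muscle fibres (-0.225). Another mouse was lowest for fibroblasts, neurons, astrocytes, red cells, and microglia and macrophages. The part of blood or of these cell types in the shifts was not tested.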

How the data were processed

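RNA of brain, heart and muscle of 4 Eya3-/- mice was hybridised against wild-type RNA pooled per organ on glass cDNA arrays, 2 per mouse and organ with exchanged dyes. The authors scanned the arrays with GenePix Pro, normalized them with MIDAS and deposited log2 ratios per clone, with both dye orientations turned the same way. The normalization method and the filters are not given in the sources used here. Scanner intensities were not used here, so signal over background is unknown for each value, and the number of arrays limits the precision.

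Clones were named through the platform's gene symbols, and the 8023 clones without a single symbol were kept as features of their own. The 2 arrays of a mouse were averaged where both had a value, then the clones of a symbol, and a feature needed at least 3 mice. Each organ was tested against 0 with limma 3.58.1 in R 4.3.3 (lmFit and eBayes, Benjamini-Hochberg adjustment over all features, called at an adjusted p under 0.10), and the organs were compared by the difference of their means. The procedure was tested on simulated data whose added changes were larger than the group shifts reported here. That test does not show whether shifts of this size would be called. Plots used Python 3.11.15 with matplotlib 3.10.9.

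The labels tie all 3 organs to the same animals, which pairs them. Across features, deviations from each organ's mean within the same mouse correlated at -0.02 to 0.06 between organs.

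Genes were named by rule: per organ the 5 with the lowest limma p and the 3 highest and 3 lowest means of those with 4 mice, the 3 largest differences between brain and heart, genes in listed structural roles, paralogs, and genes whose clones disagreed in sign. The rule gave 43 genes. Members, lists and rules were chosen with earlier results of these data known. Centring, scaling, single dyes, filters, the treatment of clones and extreme values, left-out mice, blocks, robust eBayes and a rewritten SAM (significance analysis of microarrays, the methods' test) were tried as alternatives.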

Additional observations from a re-analysis of the deposited data

Results flagged for a closer look

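Among 126 sets of 4 mice examined, 13 had 1 mouse far from the other mice. Chance gives this in about 1 in 20 sets. In brain, Rpl31 had -0.3195 in mouse Z and -0.08 to -0.04 in the others, and Rps15 had 0.456 in mouse X and -0.41 to -0.33 in the others. In heart, Rps15a had -0.497 in mouse Y against 0.37 to 0.48, Rps9 had 0.986 in mouse X against 0.10 to 0.23, and Rps21 had 2.758 in mouse Z against -0.17 to 0.26. The heart median of the large subunit genes was -0.102 in mouse Y and 0.15 to 0.19 in the others.

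In muscle, Rpl14 had 2.399 in mouse W against -0.23 to 0.01, and Rps6 had 0.1022 in mouse W against -0.17 to -0.16. Mouse Z stood apart in 5 sets of muscle. Its values were -0.3905 for Rpl28 (0.01 to 0.07 in the others), -0.1825 for Rpl31 (0.13 to 0.17), -0.2092 for Rps14 (0.08 to 0.12), -0.199 for the median of the large subunit genes (0.04 to 0.08) and -0.147 for the median of all ribosomal protein genes (0.07 to 0.09).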

How the results depend on the processing

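Limma called 0 ribosomal protein genes under every alternative run, in each organ and each difference, and so did SAM and the fit on 8 arrays. Over all features, SAM called 2 in brain and 2 in heart, and the fit on 8 arrays 2 in brain and 1 in heart. With the mouse as a replicate block, 6 in place of 18 genes were lower in brain than in heart at an unadjusted p under 0.05 (3.06% in place of 5.14% of all features), and 0 were called. Single dyes moved the medians. On the arrays with the mutant in Cy5, the brain median over the 57 genes measured there was -0.146 (-0.18 over the 56 genes with both dyes), large minus small was 0.09538 in heart and 0.01512 in muscle, and 21 genes in place of 11 were lower in heart than in muscle. On those with the mutant in Cy3, the heart median over 58 genes was 0.005208 with 30 above 0 in place of 46, brain minus muscle was -0.223, and large minus small was -0.2648 in heart and -0.1202 in muscle. The cause was not tested.

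Leaving out each mouse gave -0.07428 to -0.04033 for large minus small in heart, -0.2725 to -0.3189 for brain minus muscle, and 8 to 17 genes lower in heart than in muscle (17 without mouse Z). It gave 49 to 52 genes below 0 in brain and 41 to 53 above 0 in heart. Genes lower in brain than in heart at an unadjusted p under 0.05 numbered 4 of 52 without mouse X (3.44% of all features), 5 of 52 without W (4.54%), 6 of 53 without Z (3.06%) and 24 of 55 without Y (6.54%). Those lower in brain against the pool numbered 1 without mouse Z (2.27% of all features), 2 without X (2.12%) and 6 without Y (2.9%). With 3 mice an organ, groups separate more often in all features too. Brain below heart without overlap held for 24 of 52 genes without mouse W (12% of all features) and 36 of 55 without Y (13.2%), and brain below muscle for 10 of 52 without X (8.43%), 16 of 52 without Y (8.66%), 17 of 53 without W (10.3%) and 28 of 54 without Z (9.06%).

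Among other counts that moved by over 1.5 times, on Cy5 arrays alone 22 of 56 genes lay above 0 in every heart (11.3% of all features), 16 of 59 in every muscle (5.69%), 16 of 57 did not overlap for brain below muscle (3.16%), 8 of 60 were higher in heart at an unadjusted p under 0.05 (3.54%) and 7 of 57 lower in brain (4.65%). On Cy3 arrays alone, 9 of 59 were lower in brain (4.59%), 12 of 57 did not overlap for brain below heart (3.11%), 2 of 57 for brain below muscle (4.36%), 6 of 57 were lower in brain than in heart at that p (2.44%), and 7 of 55 lay below 0 in every heart (12.7%, the same share as among the ribosomal protein genes). With 1 array per mouse accepted, 10 of 60 were lower in brain than in heart (3.4%). Centring left 1 of 55 genes above 0 in every muscle (5.66%) and 5 of 55 without overlap for brain below muscle (3.6%). Of the named genes, 19 of 40 in brain, 12 of 41 in heart and 7 of 41 in muscle kept their sign under all alternatives. Signal over background could not be weighed.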
